A study of Homo sapiens with 4 samples.

Results

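Interferon response genes and genes of the major histocompatibility complex (MHC) class I pathway were followed in hepatoma cells and in the stem-like cells grown from them. The list held 36 genes chosen by symbol, 28 of them interferon-induced and 8 of antigen presentation, out of 16370 genes in the count files. In all, 35 were listed for at least 1 of the cell line pairs, 33 in the Hep3B pair, 31 in the Huh7 pair and 29 in both. The files list a gene only where its pair has at least 1 read. OAS2 was listed for neither pair, IFI27 and IFIT5 were missing from the Hep3B pair, and DDX60, IFI44, IRF7 and MX1 were missing from the Huh7 pair.

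Interferons are secreted when a cell senses viral nucleic acid. They act through cell surface receptors and JAK kinases, and a complex that includes STAT2 and IRF9 then enters the nucleus and binds the interferon-stimulated response element (ISRE) of its target genes. The targets include RNA sensors, proteins that block viral RNA or entry, and the machinery that loads peptides on MHC class I molecules for display to cytotoxic T cells. Tumor cells of the liver, as of other tissues, can lower this display.

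RNA was sequenced from 4 cultures with 1 library each. Hep3B and Huh7 are established human hepatoma lines, grouped as hepatocellular carcinoma cells (HCC), and their stem-like derivatives Hep3B-C and Huh7-C form the group of hepatic cancer stem cells (HCSC). The study compared each HCSC line with its parental line, and the labels name no interferon treatment or infection. Each HCSC line is 1 culture of 1 parental line. No line had a replicate library, so every difference within a pair is between those libraries, with no replicate check.

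Values for the libraries are given in the order Hep3B, Hep3B-C, Huh7, Huh7-C throughout. Counts on genes totalled 2896418, 4641927, 4537510 and 4333808. A count of 3 stood at 1.04, 0.646, 0.661 and 0.692 CPM (counts per 1000000 counts on genes). All 8 hepatocyte-lineage markers examined were present in every library, with summed levels of 57473, 62363, 49746 and 26489 CPM. SERPINA1 alone held 10113, 26906, 40517 and 17284 CPM of these sums. ALB, AFP, APOB, TF and TTR were lower in both libraries of the Huh7 lineage than in both of the Hep3B lineage, and FGB was higher. ALB was at 19541 CPM in Hep3B and 106.2 CPM in Huh7, AFP at 5584 and 5.73 CPM, TTR at 41.1 and 2.87 CPM, and FGB at 92.5 and 1436 CPM. The leukocyte markers PTPRC and CD3E were not listed in any library. The 5 listed leukocyte markers summed to 314.9, 454.6, 186.4 and 191.5 CPM, nearly all from CD68 and LYZ, and the 5 listed fibroblast markers to 14.5, 10.8, 45.2 and 15.5 CPM. Within the fibroblast sum of the Huh7 pair, COL3A1 went from 0 CPM in Huh7 to 13.4 CPM in Huh7-C. PDGFRB went from 41.0 to 0.461 CPM. The part of the leukocyte and fibroblast markers in the results was not tested.

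Promoter stretches that hold the element through which interferon-responsive transcription is known to act are shown for some called members and for a pair of antigen presentation genes. RefSeq promoter windows (GRCh38.p14, 250 bases before to 50 after the gene start) were matched by gene ID for 30 of the 35 listed members. Not matched were IFIT2, OASL, IFITM2, IRF7 and HLA-E. The ISRE core was searched as GAAANNGAAA on both strands, and overlapping cores were merged. The windows of the called members OAS1, IFI35, DDX58, IRF9, HLA-B and HLA-C held no core, and neither did another window of TAP1. Capitals mark the core, written 5′ to 3′ on the strand of the gene, so that a core on the opposite strand reads as TTTC repeats.
ISG15 (chr1:1013372-1013411, + strand): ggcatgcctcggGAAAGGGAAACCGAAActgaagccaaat
OAS3 (chr12:112938450-112938473, + strand): agagccgggcggGAAAACGAAAcc
IFITM3 (chr11:320874-320907, − strand): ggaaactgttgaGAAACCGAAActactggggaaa
IFI6 (chr1:27672264-27672297, − strand): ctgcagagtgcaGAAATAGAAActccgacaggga
IFIT1 (chr10:89392508-89392541, + strand): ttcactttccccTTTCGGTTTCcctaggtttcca
IFIH1 (chr2:162318685-162318717, − strand): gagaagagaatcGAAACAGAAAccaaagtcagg
DDX60 (chr4:168318784-168318817, − strand): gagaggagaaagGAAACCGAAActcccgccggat
B2M (chr15:44711361-44711400, + strand): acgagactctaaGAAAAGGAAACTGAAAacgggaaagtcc
TAP1 (chr6:32853811-32853850, − strand): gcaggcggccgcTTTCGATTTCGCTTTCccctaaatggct
The core ended 97 bases before the start in ISG15, 83 in IFI6, 93 in IFIT1 and 128 in B2M, and 2 bases before it in OAS3.

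At least 1 ISRE core was found in 21 of the 30 matched members (70.0%) and in 1195 of 27305 genes with a promoter window (4.38%). The members were chosen as interferon response and MHC class I genes, so their higher share is not a result of these data. Among the interferon-induced members it was in 16 of 23, and among those of antigen presentation in 5 of 7. By direction of change the counts were as follows. It was in 3 of 5 matched genes that rose in Hep3B-C, in 5 of 6 that fell and in 11 of 17 that were not called. In the Huh7 pair it was in 2 of 5 genes that fell, in the window of OAS1, the gene that rose, it was not found, and 16 of 21 genes that were not called had it. The core of the gamma-activated site, TTCNNNGAA, was in 10 members (33.3%), among them OAS1, IRF9, IRF1 and IFI35, and in 9.38% of all genes. A match is a description of letters, and no match says only that these letters are not in this window.

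Levels within a library were ordered per length, as RPKM (CPM per kilobase of gene model). B2M, the invariant light chain of MHC class I, had the highest RPKM of the members in Hep3B (391.4), ahead of the membrane protein IFITM3 (186.1). In the other libraries IFITM3 led, with 735.3 RPKM in Hep3B-C and 1949 and 1392 in the Huh7 pair, against 219.1, 271.3 and 211.6 RPKM for B2M. At the other end, MX1 and IFI27 did not exceed 0.354 RPKM in any library. The summed level of interferon-induced members was 842.4, 1201, 2056 and 1723 CPM, of which IFITM3 alone held 124.3, 491.2, 1302 and 930.1 CPM. The summed level of the antigen presentation members was lower in each HCSC line than in its parental line, at 597.3 and 443.1 CPM in the Hep3B pair and 680.5 and 473.3 CPM in the Huh7 pair. B2M alone carried the difference in the Hep3B pair. The other 7 members, a sum chosen after the values were seen, came to 211.0 and 226.8 CPM there, and to 412.8 and 264.4 CPM in the Huh7 pair. With scaling by trimmed mean of M-values (TMM) the log2 ratio of the Hep3B sums turned from −0.43 to 0.17.

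**Figure D1:**
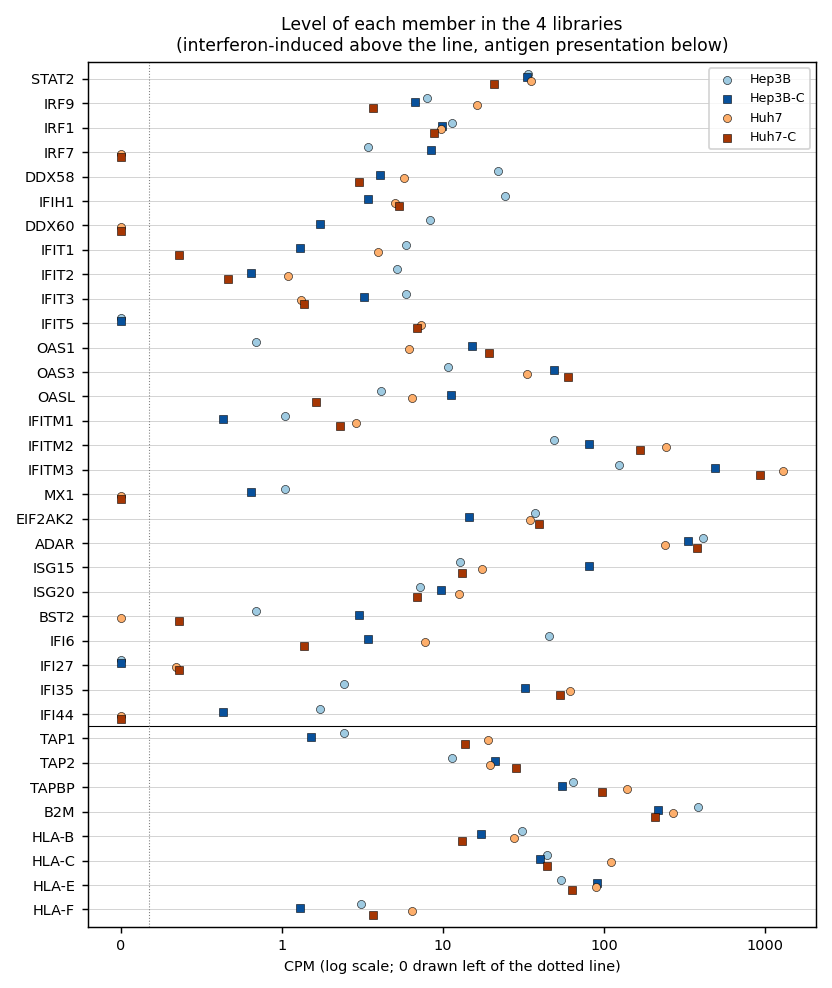
Level of each of the 35 listed members in the 4 libraries, in CPM on a log axis, with HCC lines as circles and HCSC lines as squares. Points left of the dotted line are at 0, or belong to a pair whose files do not list the gene; IFITM3 reached 1302 CPM in Huh7.

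The libraries of a pair were compared by a Poisson-based test of 2 counts (Audic-Claverie). A gene was called at a false discovery rate (FDR) of at most 0.01 over all genes of the pair and an absolute log2 ratio of at least 1. Log2 ratios and their calls had 0.5 added to each count, while folds are plain ratios of CPM with nothing added, so at low counts a fold is larger than its log2 ratio implies. The test covers sampling noise only. In Hep3B-C, 6 of 33 listed members rose (OAS1, OAS3, OASL, IFITM3, ISG15 and IFI35) and 7 fell (DDX58, IFIH1, DDX60, IFIT1, IFIT2, EIF2AK2 and IFI6). Over all genes of this pair 13.2% were called up and 30.4% down, so the members' counts were near the background in both directions. In Huh7-C, 1 of 31 members rose (OAS1) and 6 fell (IRF9, IFIT1, OASL, IFI6, HLA-B and HLA-C), beside 4.19% of all genes up and 4.15% down. The share of members that fell was above that background. However, 1 of 31 fell when a coefficient of variation of 0.2 between cultures was assumed, and 0 at 0.4. A lower level here can be less RNA per cell or fewer cells that carry it, which cannot be told apart in bulk RNA.

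The pairs shared few calls. Of the 29 members listed in both pairs, OAS1 was called up in both, beside 0.568% of all genes, and IFIT1 and IFI6 were called down in both, beside 1.49%. OASL was called up in the Hep3B pair but down in Huh7-C, a pattern seen in 0.532% of genes. The reverse pattern was seen in no member, beside 1.92% of genes.

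In the Hep3B pair 2 properties of the whole table moved with these ratios. Scaled to total counts, the median log2 ratio of all genes with at least 10 counts over the pair was −0.60 in the Hep3B pair and 0.06 in the Huh7 pair. TMM adds 0.60 to every ratio of the Hep3B pair and −0.04 to those of the Huh7 pair. With TMM, 10 members rose and 5 fell in Hep3B-C, and 3348 and 2799 of all genes did, in place of 2043 and 4708. The log2 ratio of the Hep3B pair also followed the GC content of the transcript across 12228 genes (Spearman 0.606, a description over genes of 2 libraries), and gene length (−0.403). In the Huh7 pair the coefficients were −0.0556 and 0.291.

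Genes were split by GC content into 5 equal bins. In the lowest bin (29.5 to 41.4%), 73.0% were called down in Hep3B-C and 0.777% up, and DDX58, IFIT1, DDX60, EIF2AK2 and B2M lay there. In the highest bin (58.8 to 78.8%), 43.2% were called up and 8.26% down, and IFITM3, ISG15, IRF7, HLA-B, HLA-C and HLA-E lay there. Ratios of the Hep3B pair are therefore also given below after the GC and length trends were removed, which leaves the median of all genes at −0.57. The part of GC content and length in each result was not tested beyond this. After removal, OAS1, OAS3, IFI35, DDX58, IFIH1 and IFI6 of the 13 called members were still called. TAP2 was newly called up, and IRF9, IFITM2, ISG20, TAPBP, HLA-B, HLA-C, HLA-E and HLA-F were newly called down. In all, 4 members were then up and 11 down, beside 602 and 3970 of all 15480 genes. With the median then also set to 0, DDX58 (log2 ratio −0.55), IFITM2, ISG20, TAPBP and HLA-E were no longer called. That left 4 members up and 6 down, beside 1624 and 1995 genes.

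**Figure D2:**
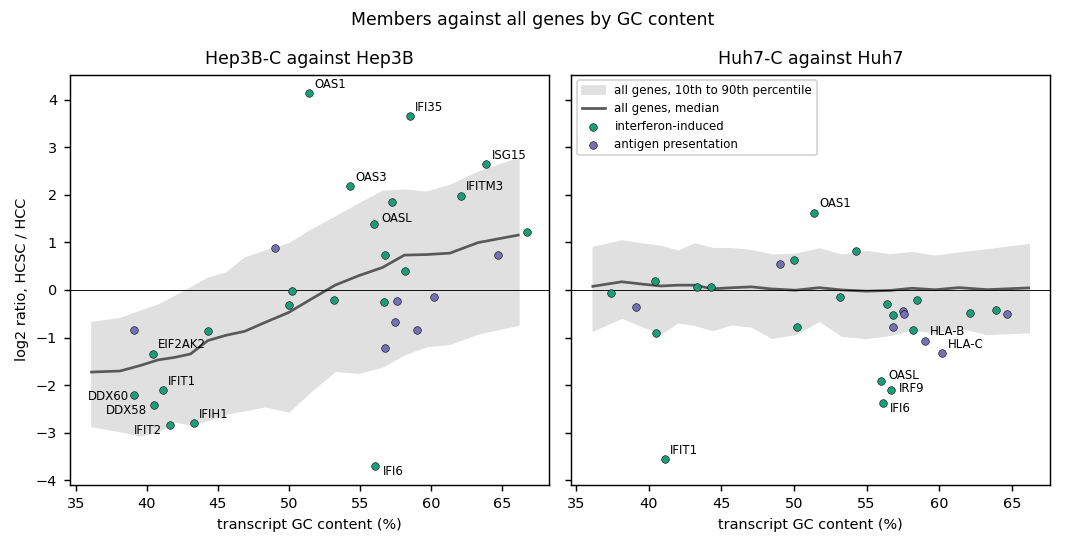
Log2 ratio (HCSC/HCC, scaled to total counts) against transcript GC content for members with at least 10 counts over the pair, with the median (line) and the 10th to 90th percentile (band) of all genes in 20 bins. In the Hep3B pair the median of all genes climbs with GC content and DDX58, IFIT1 and EIF2AK2 lie within the band. OAS1, OAS3 and IFI35 lie above it, ISG15 slightly above it, IFI6 below it and IFIT2 at its lower edge. In the Huh7 pair the median stays near 0.

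The signal transducers and transcription factors come first in the pathway. STAT2 and IRF9 are partners in the ISRE-binding complex. STAT2 had 98, 155, 161 and 90 counts, or 33.8, 33.4, 35.5 and 20.8 CPM. Its log2 ratio was −0.02 in the Hep3B pair (95% interval −0.39 to 0.36, counting error only, as for all intervals here) and −0.77 in the Huh7 pair (−1.16 to −0.39), which did not reach the ratio asked for a call. IRF9 had 23, 31, 74 and 16 counts, or 7.94, 6.68, 16.3 and 3.69 CPM. The lowest level was in Huh7-C and the highest in its parent Huh7, so IRF9 was 4.42-fold lower in Huh7-C (log2 ratio −2.11, −3.02 to −1.35, FDR 1.0e-08). It remained the only member called in this pair when a coefficient of variation of 0.2 between cultures was assumed. At 0.4 it was not called either.

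In the Hep3B pair the log2 ratio of IRF9 was −0.26 by total counts and 0.34 with TMM. It was −1.74, and called, once the trends in GC and length were removed. IRF1, a factor induced by interferon gamma that binds similar elements, had 33, 46, 44 and 38 counts, and its intervals held 0 in both pairs. IRF7, which drives the amplification of interferon production, had 10 and 39 counts in Hep3B and Hep3B-C (3.45 and 8.40 CPM). Its log2 ratio of 1.23 missed the FDR threshold (0.0190) by total counts. IRF7 was called up with TMM (1.83), and its ratio turned to −0.76 with the trends removed. The gene was not listed for the Huh7 pair.

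The 3 cytosolic RNA sensors were each called down in Hep3B-C by total counts, of which IFIH1 alone was still called with the GC and length trends removed and the median of all genes at 0. DDX58 encodes RIG-I and IFIH1 encodes MDA5, the helicases that recognize viral RNA and signal through MAVS, and DDX60 is a related interferon-induced helicase. DDX58 had 64, 19, 26 and 13 counts, or 22.1, 4.09, 5.73 and 3.0 CPM. Hep3B stood above the other 3 libraries, and Hep3B-C was 5.40-fold lower than its parent (log2 ratio −2.41, −3.25 to −1.68, FDR 2.9e-12). IFIH1 had 71, 16, 23 and 23 counts, or 24.5, 3.45, 5.07 and 5.31 CPM, with the same high value in Hep3B alone. It was 7.11-fold lower in Hep3B-C (log2 ratio −2.80, −3.71 to −2.03, FDR 7.7e-16). DDX60 had 24 and 8 counts in the Hep3B pair (8.29 and 1.72 CPM) and was 4.81-fold lower in Hep3B-C (FDR 6.5e-05).

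Neither listed sensor was called in the Huh7 pair. The log2 ratio of DDX58 was −0.91 (−2.02 to 0.08) and that of IFIH1 0.07 (−0.83 to 0.97). All 3 sensors have a GC content of 39.1 to 43.3%, a range in which most genes fell in Hep3B-C. Without the GC and length trends, the Hep3B pair's log2 ratio was −1.11 for DDX58, −2.03 for IFIH1 and −0.68 for DDX60, the last no longer called and close to the −0.57 of all genes. With the median then at 0 they were −0.55, −1.46 and −0.12.

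The IFIT proteins bind viral RNA lacking host cap modifications and block its translation. IFIT1 had 17, 6, 18 and 1 counts, or 5.87, 1.29, 3.97 and 0.231 CPM. Both HCSC lines were below both HCC lines. The log2 ratio was −2.11 in the Hep3B pair (−3.81 to −0.77, FDR 0.00118) and −3.56 in the Huh7 pair (−9.48 to −1.44, FDR 3.1e-04), and the single count in Huh7-C bounds the size of the second poorly. In the Hep3B pair the call of IFIT1 was lost with TMM scaling (−1.51) and with the trends removed (−1.53).

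IFIT2 had 15, 3, 5 and 2 counts, or 5.18, 0.646, 1.10 and 0.461 CPM, and fell in Hep3B-C (log2 ratio −2.83, −5.43 to −1.18, FDR 2.4e-04), a call that was lost with the trends removed (−1.87). Its interval in the Huh7 pair was −4.65 to 1.36. IFIT3 had 17, 15, 6 and 6 counts, and no difference was detectable at this depth in either pair. IFIT5 was listed in the Huh7 pair alone, with 33 and 30 counts (log2 ratio −0.07, −0.83 to 0.69). IFIT1, IFIT2 and IFIT3 lie on chromosome 10 within the same neighbourhood as IFIT5, and their GC content was 41.1 to 44.3%.

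The OAS family moved the other way in Hep3B-C. OAS1 and OAS3 are enzymes that make 2′-5′ oligoadenylate on sensing double-stranded RNA, which activates RNase L, while OASL lacks that activity and acts on RIG-I signaling. OAS1 (GRCh38 chr12:112906777-112933222) had 2, 70, 28 and 84 counts, or 0.691, 15.1, 6.17 and 19.4 CPM. Both HCSC lines were above both HCC lines, and Hep3B was under the level of 3 counts. The plain CPM ratio was 21.8-fold in the Hep3B pair, on 2 counts in Hep3B (log2 ratio 4.14, 2.54 to 7.52, FDR 5.2e-12) and 3.14-fold in the Huh7 pair (1.63, 1.02 to 2.32, FDR 2.4e-07). With the trends removed the log2 ratios were 3.40 and 1.80.

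OAS3, the neighbour of OAS1 on the same strand (chr12:112938352-112973249), had 31, 228, 152 and 259 counts, or 10.7, 49.1, 33.5 and 59.8 CPM. It too was higher in both HCSC lines than in either HCC line. It was 4.59-fold higher in Hep3B-C (log2 ratio 2.18, 1.65 to 2.79, FDR 2.1e-20). In Huh7-C it was 1.78-fold higher (0.83, 0.54 to 1.13, FDR 9.4e-08), under the ratio asked for a call. OASL had 12, 52, 29 and 7 counts, or 4.14, 11.2, 6.39 and 1.62 CPM. It rose 2.70-fold in Hep3B-C (log2 ratio 1.39, 0.51 to 2.48, FDR 0.00221) and fell in Huh7-C, where it was 3.96-fold lower (−1.91, −3.42 to −0.76, FDR 0.00146). The rise in Hep3B-C was lost with the length trend removed (0.81) and with GC and length removed (0.05), whereas the fall in Huh7-C held (−1.74).

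The IFITM proteins restrict the entry of enveloped viruses at the membrane. Their sequences are similar to differing degrees, and how reads with several matches were counted was not stated, so the split between members is uncertain. IFITM3 had 360, 2280, 5907 and 4031 counts, or 124.3, 491.2, 1302 and 930.1 CPM. Both libraries of the Huh7 lineage were above both of the Hep3B lineage. The gene was 3.95-fold higher in Hep3B-C than in Hep3B (log2 ratio 1.98, 1.82 to 2.15, FDR 3.6e-173). That ratio was 0.88 with the length trend removed and turned to −0.21 with GC and length removed, for a gene model of 668 bases with 62.1% GC. Between the Huh7 libraries the log2 ratio was −0.48 (−0.54 to −0.43).

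IFITM2 had the same order of libraries, with 48.7, 81.2, 243.1 and 167.8 CPM. Its log2 ratios were 0.74 (0.46 to 1.03) and −0.53 (−0.67 to −0.40), neither called by total counts. The first was called up with TMM (1.33) and called down with the trends removed (−1.03). IFITM1 was low throughout, at 3, 2, 13 and 10 counts.

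Among the other effectors, the largest fall of any member in Hep3B-C was that of IFI6, a mitochondrial and endoplasmic reticulum protein that restrains apoptosis. IFI6 (chr1:27666061-27672218) had 133, 16, 35 and 6 counts, or 45.9, 3.45, 7.71 and 1.38 CPM. Both HCSC lines were below both HCC lines. The level was 13.3-fold lower in Hep3B-C (log2 ratio −3.70, −4.58 to −2.98, FDR 2.5e-37) and 5.57-fold lower in Huh7-C (−2.38, −4.02 to −1.21, FDR 3.4e-05). With a GC content of 56.1%, IFI6 fell in a range in which 14.5% of genes were called down in Hep3B-C, and with the trends removed its log2 ratio there was −5.37.

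ISG15, a ubiquitin-like protein conjugated to targets during the interferon response, had 37, 373, 80 and 57 counts, or 12.8, 80.4, 17.6 and 13.2 CPM. Hep3B-C stood above the other 3 libraries, 6.29-fold above its parent (log2 ratio 2.64, 2.16 to 3.18, FDR 1.8e-40). In Huh7-C no difference was called (−0.42, −0.94 to 0.09). ISG15 has 63.9% GC and a gene model of 666 bases, and with both trends removed its ratio in the Hep3B pair was 0.34 and no longer called.

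IFI35, an interferon-induced leucine zipper protein, had 7, 151, 278 and 230 counts, or 2.42, 32.5, 61.3 and 53.1 CPM. Here Hep3B was the low library, and Hep3B-C was 13.5-fold above it (log2 ratio 3.66, 2.67 to 5.09, FDR 1.1e-22), with 1.84 after the trends were removed. EIF2AK2 encodes PKR, the kinase that halts translation on sensing double-stranded RNA. It had 108, 68, 159 and 172 counts, or 37.3, 14.6, 35.0 and 39.7 CPM, so that only Hep3B-C stood apart, 2.55-fold below Hep3B (log2 ratio −1.34, −1.81 to −0.90, FDR 2.4e-09). With a GC content of 40.4%, its call was lost with TMM scaling (−0.75) and with the trends removed (−0.39), and its direction turned once the median of all genes was also set to 0 (0.17).

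ADAR, the enzyme that edits adenosine to inosine in double-stranded RNA, was abundant and not called in either pair, with 415.3, 335.0, 241.3 and 377.3 CPM. Its log2 ratio was −0.31 in the Hep3B pair (−0.42 to −0.20), which turned to 0.29 with TMM, and 0.64 in the Huh7 pair (0.53 to 0.76). ISG20, a 3′ exonuclease, had 21, 45, 57 and 30 counts and was not called in either pair by total counts. In the Hep3B pair ISG20 was called up with DESeq2 size factors (1.08) and down with the trends removed (−1.45). BST2, or tetherin, had 2, 14, 0 and 1 counts. MX1 had 3 and 3 counts in the Hep3B pair, IFI44 had 5 and 2, and IFI27 had 1 and 1 in the Huh7 pair, so these often-used markers of an interferon response were at or near the floor of 3 counts in the libraries that listed them.

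**Figure D3:**
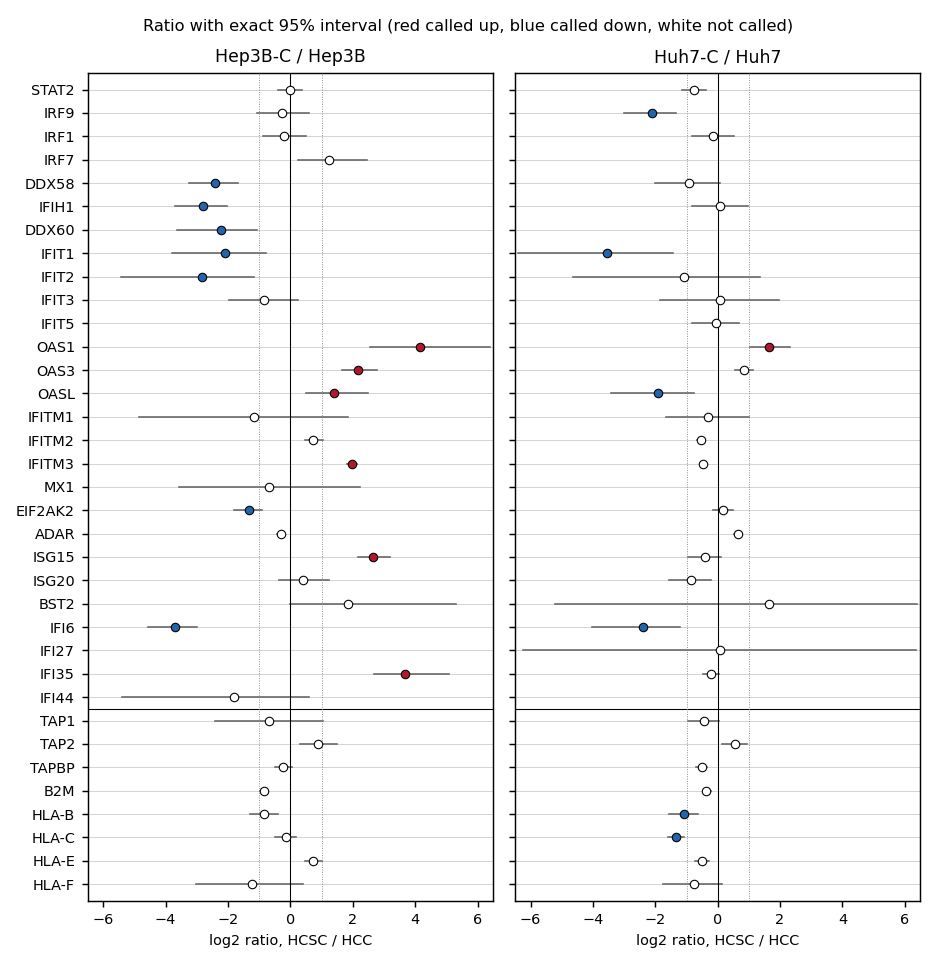
Log2 ratio (HCSC/HCC) of each listed member in the Hep3B pair (left) and the Huh7 pair (right), scaled to total counts, with exact 95% intervals for counting error, cut at the axis limits. Filled points were called (red up, blue down) and dotted lines mark a ratio of 1 in either direction; OAS1 is red and IFIT1 and IFI6 are blue in both panels, and OASL is red on the left and blue on the right.

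MHC class I molecules present peptides that TAP1 and TAP2 carry into the endoplasmic reticulum and that tapasin, encoded by TAPBP, helps to load. By total counts, none of the 8 antigen presentation members was called in Hep3B-C, where 13.2% of all genes were called up and 30.4% down. In Huh7-C 2 of 8 fell, beside 4.15% of all genes. TAP1 had 7, 7, 86 and 60 counts, or 2.42, 1.51, 19.0 and 13.8 CPM, and the difference lay between the lineages rather than within the pairs. Its intervals held 0 in both pairs. TAP2 had 33, 98, 89 and 124 counts, or 11.4, 21.1, 19.6 and 28.6 CPM, with both HCSC lines above both HCC lines. It was the only one of the 8 with a ratio above 0 in both pairs. Its log2 ratio was 0.88 in the Hep3B pair (0.31 to 1.51, FDR 0.00357) and 0.54 in the Huh7 pair (0.14 to 0.95), both under the ratio asked for a call, and it was called in the Hep3B pair with TMM (1.47) and with the trends removed (1.35). TAPBP had 64.2, 54.7, 139.5 and 97.6 CPM and was not called by total counts. In the Hep3B pair it was called down with the trends removed (−1.27), but not with the median then at 0 (−0.71).

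B2M had 1119, 1004, 1215 and 905 counts, or 386.3, 216.3, 267.8 and 208.8 CPM. Both HCSC lines were below both HCC lines. The log2 ratio was −0.84 in the Hep3B pair (−0.96 to −0.71, FDR 1.6e-39) and −0.36 in the Huh7 pair (−0.48 to −0.23), neither large enough for a call. In the Hep3B pair B2M was called down with the length trend alone removed (−1.86). With 39.1% GC, the ratio of the Hep3B pair was −0.44 with both trends removed. It turned to 0.13 once the median of all genes was also set to 0.

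HLA-B and HLA-C are classical heavy chains, and HLA-E and HLA-F are non-classical ones. They are paralogs of high identity, and the alleles of these lines may differ from the reference, so the counts per gene are uncertain. HLA-C had 129, 186, 505 and 192 counts, or 44.5, 40.1, 111.3 and 44.3 CPM. Huh7 alone was high, and HLA-C was 2.51-fold lower in Huh7-C (log2 ratio −1.33, −1.58 to −1.09, FDR 6.2e-29). HLA-B had 90, 80, 126 and 57 counts, or 31.1, 17.2, 27.8 and 13.2 CPM, so that both HCSC lines were below both HCC lines. It was 2.11-fold lower in Huh7-C (−1.07, −1.56 to −0.62, FDR 8.7e-06), a call that was lost with the length trend removed (−0.91), and its log2 ratio in the Hep3B pair was −0.85 (−1.30 to −0.40).

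HLA-E, a ligand of natural killer cell receptors, had 54.2, 90.9, 89.3 and 63.2 CPM. Its log2 ratio was 0.74 in the Hep3B pair (0.48 to 1.02) and −0.50 in the Huh7 pair (−0.72 to −0.27), neither called by total counts. In the Hep3B pair HLA-E was called up with TMM (1.34) and with DESeq2 size factors (1.42). HLA-F had 9, 6, 29 and 16 counts. These 4 genes have 56.8 to 64.7% GC, a range in which most genes were higher in Hep3B-C. With the GC and length trends removed, all 4 were called down in Hep3B-C, at −2.57 for HLA-B, −1.98 for HLA-C, −1.30 for HLA-E and −2.77 for HLA-F. In that setting 3970 of all 15480 genes were called down, and the median of all genes was −0.57. With the median of all genes then set to 0, HLA-B (−2.0), HLA-C (−1.41) and HLA-F (−2.20) were still called and HLA-E (−0.73) was not. Of all genes 1995 were then called down.

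**Figure D4:**
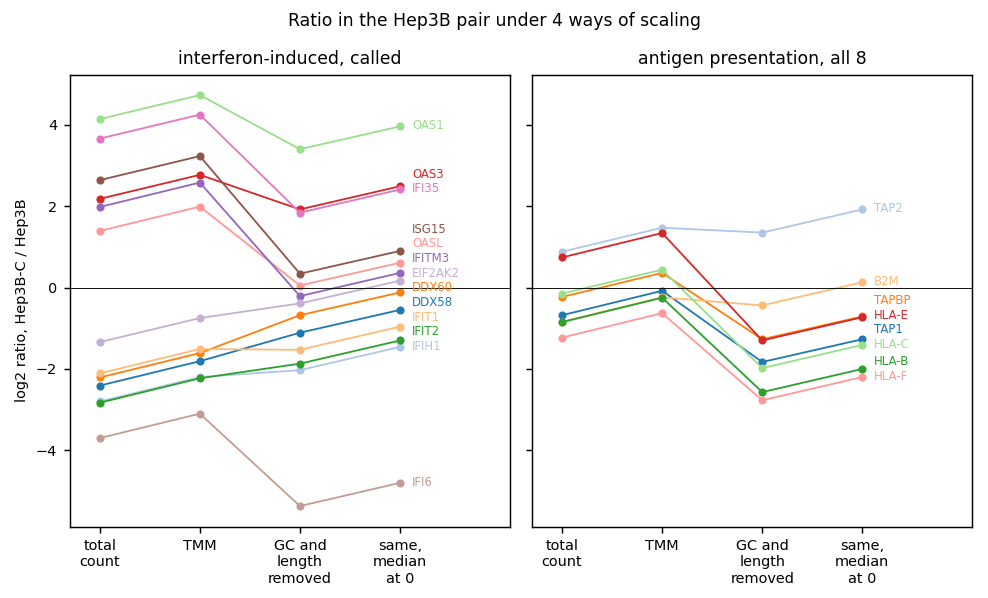
Log2 ratio (Hep3B-C/Hep3B) under 4 ways of scaling, for the 13 interferon-induced members called in this pair (left) and the 8 antigen presentation members (right). OAS1, OAS3, OASL, ISG15 and IFI35 stay above 0 throughout. DDX58, IFIH1, DDX60, IFIT1, IFIT2 and IFI6 stay below it, and IFITM3 and EIF2AK2 change sign. TAP1, TAPBP, HLA-B, HLA-C, HLA-E and HLA-F each have their lowest ratio with the GC and length trends removed.

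As groups, the members with at least 10 counts over the pair were centred as follows, with no test. The median log2 ratio of the interferon-induced members was −0.11 in the Hep3B pair, where 10 of 22 were above 0, and −0.36 in the Huh7 pair, with 6 of 20 above 0. For antigen presentation it was −0.46 (2 of 8 above 0) and −0.51 (1 of 8). Among all genes 36.8% were above 0 in the Hep3B pair and 53.4% in the Huh7 pair. With TMM the medians of the Hep3B pair turned to 0.48 and 0.14, beside −0.01 for all genes. With the GC and length trends removed they were −0.54 and −1.57, beside −0.57 for all genes. In the Huh7 pair the same settings left them between −0.55 and −0.16.

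The HCSC lines were also compared with the HCC lines over both lineages with edgeR (quasi-likelihood test, parental line as a block, FDR of at most 0.05 over 11691 genes). Only 1 residual degree of freedom remains. Of 29 members tested, 0 were called, beside 0.0342% of all genes called higher and 0.0428% lower in HCSC. DESeq2 called 0 of the 15 members to which it gave an adjusted p. At an unadjusted p under 0.05 edgeR had 1 member higher and 2 lower. They were OAS1 (log2 difference 2.85, edgeR p 0.00507, adjusted p 0.780), IFI6 (−2.96, edgeR p 0.00266, adjusted p 0.527) and IFIT1 (−2.62, edgeR p 0.0243, adjusted p 0.999). Each had the direction of its difference in both pairs. The lowest adjusted p of any member ranged from 0.483 to 1.0 over the alternative edgeR and DESeq2 fits.

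Between lineages, the same edgeR fit called 2 members higher and 1 lower in the Huh7 libraries than in the Hep3B libraries, beside 3.65% and 4.82% of all genes. TAP1 was higher in the Huh7 lineage (log2 difference 3.05, edgeR adjusted p 0.0297), with both Huh7 libraries above both Hep3B libraries, but DESeq2 did not call it. IFIT5 (edgeR adjusted p 4.6e-04) was listed in the Huh7 pair alone and IRF7 (edgeR adjusted p 6.5e-04) in the Hep3B pair alone. Both calls rest on taking the gene as 0 counts where it was not listed, and neither gene could be tested when only genes listed in both pairs entered. IFITM3 and IFI35, at log2 differences of 2.13 and 2.46, did not pass (edgeR adjusted p 0.217 and 0.155).

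The rest of the pathway was read from lists chosen by role. All counts that follow stand beside 13.2% of all genes called up and 30.4% down in the Hep3B pair, and 4.19% up and 4.15% down in the Huh7 pair. No interferon gene of the list was listed in any library. Of 13 receptor and kinase genes, 1 rose and 5 fell in Hep3B-C, and 1 fell in Huh7-C, the falls in Hep3B-C being near the background share. IFNGR1, a chain of the interferon gamma receptor, had 70.4, 15.1, 28.0 and 18.9 CPM and fell in Hep3B-C (log2 ratio −2.22, FDR 7.9e-33, and −1.36 with the trends removed). With the median then at 0 it was −0.80. JAK1, a kinase bound to these receptors, fell in Hep3B-C by total counts (−1.27, FDR 5.2e-36). With the trends removed its ratio was −0.53, near that of all genes, and with the median then at 0 it was 0.04. SOCS3, an inhibitor of JAK signaling, had 0, 1, 61 and 11 counts and fell in Huh7-C (−2.35, FDR 2.7e-08).

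Of the adaptors and kinases below the RNA sensors, 1 of 7 rose and 3 fell in Hep3B-C, and 0 of 8 were called in Huh7-C, with the rise at the background share. TRAF3 and TBK1, which link the sensors to interferon transcription, fell in Hep3B-C (log2 ratio −2.19 and −1.97). With the trends removed their ratios were −2.58 and −0.93, and with the median then at 0 they were −2.01 and −0.37. IRF3, the factor that TBK1 phosphorylates, rose there (1.66). Its ratio was −0.20 with the trends removed and 0.36 with the median then at 0. Of 30 further interferon-stimulated genes, 3 rose and 10 fell in Hep3B-C, shares near those of all genes, and 2 fell in Huh7-C. UBE2L6, the conjugating enzyme for ISG15, fell in both, with 25, 13, 172 and 48 counts (log2 ratio −1.60, FDR 0.00129, and −1.76, FDR 2.6e-15). The first was −1.0 with TMM, −3.21 with the trends removed and −2.65 with the median then at 0.

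Of 16 further antigen processing genes, 3 rose and 1 fell in Hep3B-C and 0 were called in Huh7-C, the falls in Hep3B-C being below the background share. PSME2, a subunit of the proteasome activator, had 32.8, 127.5, 74.5 and 71.8 CPM and rose in Hep3B-C (log2 ratio 1.95, FDR 7.6e-45), with 1.30 after the trends were removed. RFXANK, a factor of MHC promoters, rose (1.85) and ERAP1, the aminopeptidase that trims peptides, fell (−1.68), but with the trends removed these were −0.05 and −0.23. With the median then at 0 they were 0.52 and 0.34. Of the MHC class II genes, none of 5 was called in Hep3B-C and 1 of 6 in Huh7-C. It was HLA-DMB, with 1, 2, 18 and 48 counts (log2 ratio 1.46 in the Huh7 pair, FDR 6.7e-04).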

How the data were processed

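Libraries of 4 cultures were run on an Illumina Genome Analyzer II. After trimming adapters and dropping reads of low quality, the authors aligned the rest to NCBI Build 36.1 with NextGENe and deposited raw read counts per gene, with the gene length. The gene annotation and the handling of multiply matching reads are not given in the sources used here. The members and lists were chosen with earlier results of these data known. All members are named. Of a pathway list, the rule names at most the 3 genes with the largest absolute log2 ratio among those called in both pairs, or else called with at least 50 counts in a pair. Not all genes of the lists are reported here.

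Here, genes were joined by Entrez ID, and CPM and RPKM were computed from the counts. Log2 ratios had 0.5 added to each count, and folds had nothing added. The Audic-Claverie test used library totals, with Benjamini-Hochberg adjustment over all genes of the pair. Intervals were exact (95%). The joint fit used edgeR 4.0.16 (TMM, filterByExpr, parental line as a block), and DESeq2 1.42.0 was an alternative. Each HCSC line came from 1 parental line, which pairs the samples, and the deviations of a pair's libraries from their group means correlated at 0.532. GC content came from GENCODE 29 transcripts, and trends were fitted by lowess over 30% of genes. Coordinates are GRCh38 annotation, not the build of the reads. Analyses ran in Python 3.11.15 and R 4.3.3.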

Additional observations from a re-analysis of the deposited data

Results flagged for a closer look

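OASL had opposite signs in the pairs. Its log2 ratio was 1.39 in the Hep3B pair and −1.91 in the Huh7 pair, a difference of 3.30, and it was called in each. With 1 library per line this difference was not tested. The ratio of the Hep3B pair was 0.05 with the GC and length trends removed.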

How the results depend on the processing

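With 1 library per line, no within-pair call has a replicate check. Counts of members called were the same with an exact binomial test and with at least 10 counts over the pair. Assuming a coefficient of variation of 0.4 between cultures, 0 members were called in either pair (62 genes up and 169 down in the Hep3B pair, 13 and 12 in the Huh7 pair). At 0.2, 5 and 5 members remained in the Hep3B pair and 0 and 1 in the Huh7 pair (97 and 161 genes). The joint edgeR fit, with its 1 residual degree of freedom, put the common coefficient of variation at 0.514, above both assumed values.

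In the Hep3B pair, 10 members were called up and 5 down with TMM, and 12 up and 5 down with DESeq2 size factors. Over all genes, 3348 were up and 2799 down with TMM, and 3549 and 2553 with DESeq2. With the GC and length trends removed, 4 members were called up and 11 down, beside 602 and 3970 of 15480 genes. An alternative chosen after seeing the data removed both trends and set the median of all genes to 0, which left 1995 genes down in the Hep3B pair and 388 up in the Huh7 pair (412 with the trends removed alone). The median ratio of the interferon-induced members in the Hep3B pair was 0.48, 0.57, −0.54 and 0.02 under TMM, DESeq2, trends removed, and trends removed with the median at 0. That of antigen presentation was 0.14, 0.22, −1.57 and −1.0, and −0.79 with the length trend removed alone.

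Ratios of the Hep3B pair that turned were, with TMM and DESeq2 in turn, STAT2 (0.57, 0.66), IRF9 (0.34, 0.42), IRF1 (0.39, 0.47), ADAR (0.29, 0.37), TAPBP (0.36, 0.45) and HLA-C (0.44, 0.53). With the length trend removed they were STAT2 (0.51), IRF1 (0.06), IFITM2 (−0.35), ADAR (0.60), ISG20 (−0.63) and TAPBP (0.04). With GC and length removed, and then with the median at 0, they were STAT2 (0.11, 0.68), IRF7 (−0.76, −0.20), IFITM2 (−1.03, −0.47), ADAR (0.09, 0.66), ISG20 (−1.45, −0.89) and HLA-E (−1.30, −0.73). IFITM3 (−0.21) turned under the first alone, and IFIT3 (0.16), EIF2AK2 (0.17) and B2M (0.13) under the second alone. In the Huh7 pair IFIH1 (−0.02, −0.04), IFITM1 (0.05, 0.03, and 0.02 with length alone) and IFI35 (0.02) turned, all close to 0. The cause was not tested.

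Without the replicate block, edgeR called 0 genes higher and 0 lower in HCSC, against 4 and 5 with the pairing, and 0 members in either. With the block, edgeR called 8 lower with no filter on low counts, and DESeq2 9. A blocked fit of 3 libraries has no residual degree of freedom, so leaving out each library in turn was run without the block, where the lone library is assumed to vary like the others. It gave 0 to 11 genes higher and 0 to 18 lower, and 0 members. Members called between lineages were 2 lower with no filter (IRF7 and DDX60), 1 higher (TAP1) and 0 lower among genes listed in both pairs, and 1 higher (IFIT5) and 0 lower with DESeq2.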
